A study of Mus musculus with 23 samples.

Results

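The genes described here are 8 genes that sense sterol in the cell, move it within the cell, or send it out. Their names are Insig1, Insig2, Scap, Srebf1, Srebf2, Stard4, Npc1 and Abca1. They were chosen by name and read through every non-control probe whose RefSeq transcript belongs to one of them, which gave 11 probes of the 55681 on the array. They are 8 of the 20145 gene symbols that the array could be matched to. Insig2, Stard4 and Srebf2 had 2 probes each, and the other genes had 1.

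The cells were TM4, 1 immortalized line derived from mouse Sertoli cells, the somatic cells that support germ cells in the testis tubule. Treatment lasted 48 hr, and the compounds (DINCH, MEHP, BDB, DOS and DOM) were each given at 100 μM in DMSO, while control cells received the 1% DMSO vehicle alone. Each group had 4 arrays, stated to be biological replicates, apart from DOS with 3 (replicates 1, 3 and 4), which makes 23 arrays on 3 slides. DOS had no array on slide 2, which held 2 of the 4 DMSO arrays, so these groups also differed in slide. MEHP is the monoester metabolite of the phthalate plasticizer DEHP, DINCH is a cyclohexane dicarboxylate ester sold as a plasticizer, BDB is a dibenzoate, and DOM and DOS are dioctyl esters of maleic and succinic acid. The question asked of the genes was how the candidate replacements compared with MEHP and with vehicle. DMSO, DOM and DOS lay on the same rows of the slides, and MEHP, DINCH and BDB on the others, so slide row and treatment cannot be told apart when these last 3 are compared with DMSO.

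Cells hold membrane cholesterol within narrow limits by a feedback loop. SCAP, the cholesterol sensor coded by Scap, carries the membrane-bound SREBP transcription factors (coded by Srebf1 and Srebf2) from the endoplasmic reticulum to the Golgi, where they are cut and freed to enter the nucleus. When sterol is plentiful, the INSIG proteins hold SCAP in the endoplasmic reticulum and the loop is off. SREBP-2 mainly drives genes of cholesterol synthesis and uptake, while SREBP-1 mainly drives fatty acid genes. Insig1 is itself a classic SREBP target, and so is Stard4, which codes for a soluble carrier that moves cholesterol between membranes. NPC1 exports cholesterol from lysosomes after lipoprotein uptake, and ABCA1, a target of the oxysterol receptor LXR, passes cholesterol to apolipoproteins outside the cell. Sertoli cells take up and store lipid as part of clearing germ cell remnants.

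The sequences before the start sites of 3 of the genes are shown because the letters bound by SREBP and its partner factors are looked for there. The windows come from RefSeq (GRCm38.p6), and windows were found for 6 of the 8 genes. Printed are the 250 bases before the start, 5′ to 3′ on the gene's strand. Capitals mark the NF-Y box CCAAT, the E-box CACGTG and the Sp1 box GGGCGG, read on either strand. Insig1 lies at chr5:28071162-28071411 on the plus strand, the upstream window of Insig2 at chr1:121332590-121332839 on the minus strand, and Srebf2 at chr15:82147019-82147268 on the plus strand.
Insig1: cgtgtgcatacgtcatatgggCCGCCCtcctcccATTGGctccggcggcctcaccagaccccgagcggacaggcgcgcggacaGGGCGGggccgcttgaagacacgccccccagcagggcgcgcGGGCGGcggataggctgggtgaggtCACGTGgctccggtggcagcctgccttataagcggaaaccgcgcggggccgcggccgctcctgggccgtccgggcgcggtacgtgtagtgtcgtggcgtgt
Insig2: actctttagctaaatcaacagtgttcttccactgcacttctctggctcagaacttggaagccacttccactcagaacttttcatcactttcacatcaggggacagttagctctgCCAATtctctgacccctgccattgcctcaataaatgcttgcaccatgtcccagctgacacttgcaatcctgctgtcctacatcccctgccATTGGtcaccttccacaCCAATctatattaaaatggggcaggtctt
Srebf2: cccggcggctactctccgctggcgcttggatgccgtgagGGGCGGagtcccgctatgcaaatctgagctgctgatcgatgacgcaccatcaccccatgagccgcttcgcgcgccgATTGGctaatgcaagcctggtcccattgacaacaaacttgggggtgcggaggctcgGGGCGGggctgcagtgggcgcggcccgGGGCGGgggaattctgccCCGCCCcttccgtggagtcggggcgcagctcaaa

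The Insig1 window held 1 NF-Y box, 1 E-box and 3 Sp1 boxes. The upstream Insig2 window held 3 NF-Y boxes, and its other 2 windows held 1 Sp1 box each. The Srebf2 window held 1 NF-Y box and 5 Sp1 boxes, 1 of them after the start and so not printed. Searched over both strands of the full 300-base windows (250 before and 50 after the start), the NF-Y box was present for 4 of the 6 genes (Insig1, Insig2, Srebf1 and Srebf2) and in 37.4% of all 32851 promoter windows. The E-box was present for Insig1, Scap and Abca1 and in 7.15% of all windows, and the Sp1 box for all 6 genes and in 35.7% of windows. The sterol response element core TCACNCCAC was in 1.24% of all windows and in none of the 6 genes. Of 17 cholesterol synthesis enzymes with a window, only 1 (Hmgcs1) held it, so a missing match to these exact letters tells little. The LXR element of the DR4 type (AGGTCA repeated with 4 bases between) was likewise in none of the 6 genes. It was in only 0.0152% of all windows, so a match in 6 genes was very unlikely beforehand and its absence tells little. A gene with several windows has more chances of a match than 1 window has. These matches describe letters in these windows and nothing about binding.

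The level of a probe is given as log2 of its processed intensity minus the log2 of the array's 75th percentile, so 0 is the 75th percentile and 1 unit is a doubling. Levels are compared between groups for 1 probe and not between probes. A probe was called when its adjusted p from limma, with Benjamini-Hochberg adjustment over all tested probes, was below 0.05 and the difference exceeded 1.5-fold, and a gene counted as called when any of its probes was. The 75th percentile was 204.6 to 350.7 intensity units, 43.4% to 52.2% of spots were well above background, and no spot was saturated. Of 15 Sertoli cell markers, 7 were well above background on every DMSO array, among them Sox9, Gata4 and Dhh, and 5 were so on no array (Wt1, Gata1, Amhr2, Cldn11 and Fshr). Of the markers of other testis cells, those well above background on all DMSO arrays were 2 of 4 for peritubular myoid cells (Acta2 and Cnn1), 1 of 5 for Leydig cells (Cyp17a1), 1 of 3 for macrophages (Csf1r), 1 of 3 for endothelium (Pecam1) and 0 of 4 for germ cells. Myh11 of myoid cells, Cyp11a1, Hsd3b1 and Lhcgr of Leydig cells, Ptprc and Adgre1 of macrophages, and Cdh5 and Tek of endothelium were so on none of the 23 arrays. In these bulk RNA samples, fewer expressing cells and less RNA per cell cannot be told apart.

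Compared with DMSO, Insig1 and Stard4 were called higher with MEHP, DINCH and DOM, and Insig2 with DOM. No member was called lower with any compound. With MEHP, 2 of the 7 tested genes were called (2 of 10 probes), against 1.23% of all tested probes (0.794% higher and 0.434% lower). With DINCH, 2 of 7 were called (2 of 10 probes), against 6.14% of all probes (3% higher and 3.14% lower). With DOM, 3 of 7 were called (4 of 10 probes), against 16.6% of all probes (7.67% higher and 8.93% lower). With BDB and DOS, limma called none of the 7, against 0% of all probes. No member's brightest probe had an unadjusted p below 0.05 with either. Of all tested probes, 3495 of 24292 did for BDB and 1725 of 24209 for DOS. At these shares, none of 7 genes does not set the members apart from the other probes. Abca1 was not tested in any comparison. By each gene's brightest probe, the median log2 difference from DMSO over the 7 genes was 0.54 with DOM, 0.32 with DINCH, 0.31 with MEHP, 0.03 with DOS and -0.14 with BDB. Over all tested probes the medians were -0.08, -0.01, -0.04, -0.01 and -0.02 in the same order. The 5 comparisons share the same 4 DMSO arrays.

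**Figure D1:**
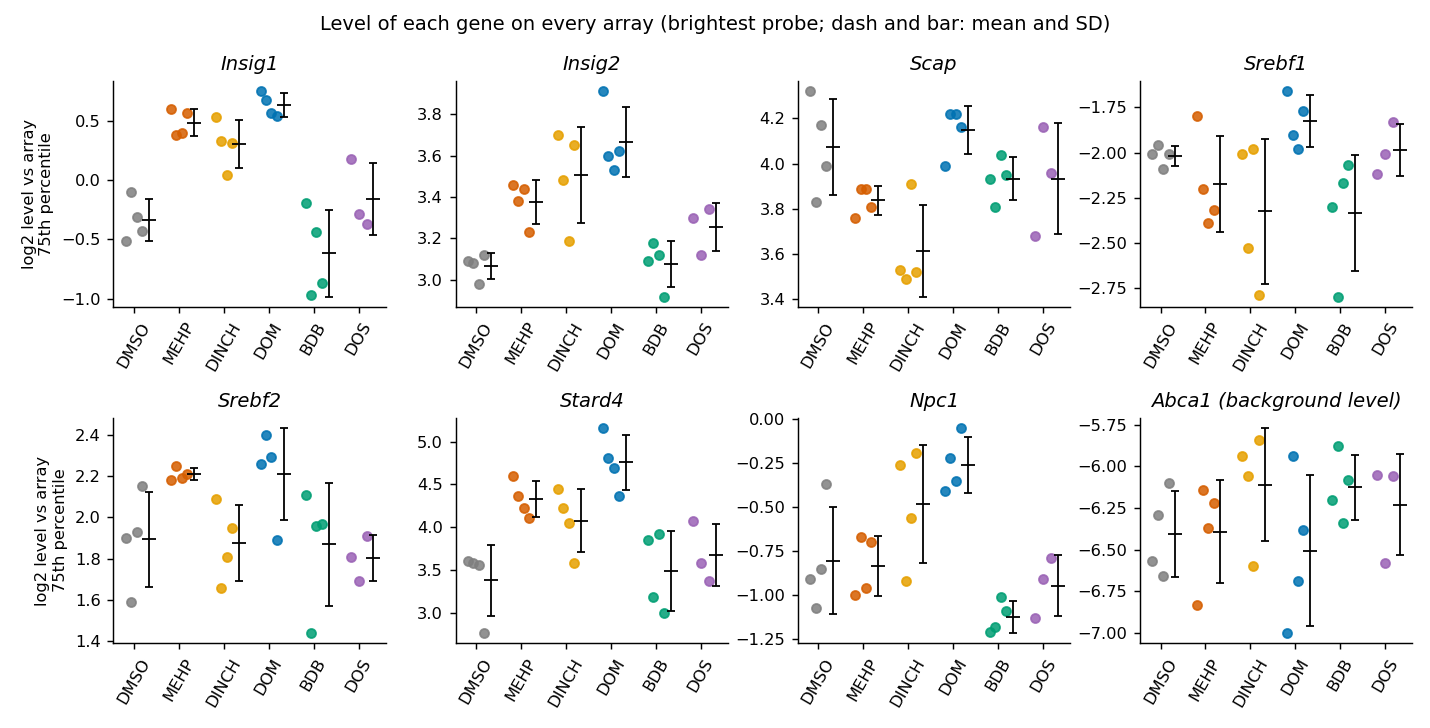
Level of each gene on every array, as log2 of the processed intensity relative to the array's 75th percentile (y axis), by group (x axis). Points are arrays of the gene's brightest probe, and the dash and bar give the mean and SD. All 12 arrays of MEHP, DINCH and DOM lay above the highest DMSO array for Insig1, and the Abca1 readings are at background.

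Insig1 codes for the anchor that holds SCAP back and that also targets HMG-CoA reductase for breakdown. Its 4 DMSO arrays, replicates 1 to 4, read -0.51, -0.10, -0.31 and -0.43. The MEHP arrays read 0.60, 0.38, 0.40 and 0.57. The DINCH arrays read 0.53, 0.33, 0.04 and 0.31. All 8 of these treated arrays lay above all 4 DMSO arrays, with the lowest of them DINCH replicate 3. The DOM arrays read 0.75, 0.68, 0.57 and 0.54 and were also clear of DMSO. The BDB arrays read -0.19, -0.97, -0.44 and -0.87, and the 3 DOS arrays 0.18, -0.29 and -0.37. Both of these groups overlapped DMSO, although DOS replicate 1 was above every DMSO array and 2 BDB arrays were below.

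The log2 difference of Insig1 from DMSO was 0.97 with DOM (SE 0.11, 1.96-fold, 95% interval 0.72 to 1.23, adjusted p = 0.000551). It was 0.82 with MEHP (SE 0.11, 1.77-fold, interval 0.58 to 1.07, adjusted p = 0.0105) and 0.64 with DINCH (SE 0.13, 1.56-fold, interval 0.34 to 0.94, adjusted p = 0.0199). It was -0.28 with BDB (SE 0.18, adjusted p = 0.541) and 0.18 with DOS (SE 0.16, adjusted p = 0.900). Within single slides, the difference was 0.77 to 1.23 for DOM, 0.60 to 1.00 for MEHP and 0.54 to 1.05 for DINCH. It was -0.50 to 0.33 for BDB and, over 2 slides, 0.10 to 0.70 for DOS. The group means ran in the order DOM, MEHP, DINCH, DOS, DMSO and BDB. The DINCH call was lost when any of 5 arrays (DMSO replicates 1, 3 and 4, and DINCH replicates 1 and 4) was left out. Without DMSO replicate 1 (0.58, adjusted p = 0.04999) or DINCH replicate 1 (0.56, adjusted p = 0.0464), only the 1.5-fold limit was missed. Without the others the size passed, at 0.61 to 0.65, and the adjusted p, at 0.05085 to 0.0576, did not.

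Insig2, the second anchor, is regulated less by SREBP than Insig1 and is best known from liver, where insulin represses one of its transcripts. Its 2 probes were designed on different RefSeq transcripts of the gene. The brighter probe read 3.09, 3.08, 2.98 and 3.12 on the DMSO arrays. With DOM it read 3.91, 3.60, 3.53 and 3.62, every array above DMSO. The log2 difference was 0.60 (SE 0.11, adjusted p = 0.00344), and its 1.51-fold size lay just past the 1.5-fold limit. The dimmer probe rose by 0.68 (SE 0.13, 1.61-fold, adjusted p = 0.00382), again with no overlap. With DINCH the brighter probe read 3.70, 3.48, 3.19 and 3.65, and with MEHP 3.46, 3.38, 3.44 and 3.23. All of these arrays lay above DMSO too, but the differences of 0.44 (adjusted p = 0.0539) and 0.31 (adjusted p = 0.0979) did not pass. BDB gave 0.01 (interval -0.19 to 0.21) and DOS 0.19 (interval -0.04 to 0.42), and neither passed. The brighter probe alone was not past the limit for DOM in 3 other settings (slide as a block, without DMSO replicate 3, and without DOM replicate 1), where the dimmer probe kept the gene called.

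Stard4 codes for the sterol carrier and was read by 2 probes for the same transcript. The brighter probe read 3.60, 3.58, 3.56 and 2.76 in DMSO, where replicate 4 stood below the others. With DOM it read 5.16, 4.81, 4.69 and 4.37, all above DMSO. With MEHP it read 4.6, 4.37, 4.22 and 4.11, also all above DMSO. With DINCH it read 4.45, 4.23, 4.05 and 3.58, of which the last lay within the DMSO range. The dimmer probe read 0.13, -0.07, -0.07 and -0.30 in DMSO, and 1.02, 0.75, 0.77 and 0.61 with MEHP. It read 0.76, 0.57, 0.33 and 0.56 with DINCH and 0.64, 0.56, 0.52 and 0.14 with DOM. On this probe every array of the 3 treatments lay above DMSO.

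With DOM, the brighter Stard4 probe differed from DMSO by 1.38 log2 units (SE 0.23, 2.60-fold, adjusted p = 0.00223) and was the one called. The dimmer probe differed by 0.54 (SE 0.14, 1.45-fold, adjusted p = 0.0173), which is under the 1.5-fold limit. With MEHP and DINCH the dimmer probe was called, at 0.87 (SE 0.12, 1.82-fold, adjusted p = 0.0121) and 0.63 (SE 0.13, 1.55-fold, adjusted p = 0.0175). The brighter probe gave nearly the same sizes there, 0.95 for MEHP (SE 0.20, adjusted p = 0.0520) and 0.70 for DINCH (SE 0.24, adjusted p = 0.0926), without passing. With the replicate number as a block it passed for both, with adjusted p-values of 0.0331 and 0.0122. Without DMSO replicate 4, the low array, the brighter probe differed by 0.74 with MEHP (adjusted p = 0.0439). For DINCH neither probe was called when DMSO replicate 3, DMSO replicate 4 or DINCH replicate 1 was left out, and Insig1 was lost with them, so that no member was called for DINCH in these 3 settings. BDB gave 0.11 (interval -0.48 to 0.69) and DOS 0.30 (interval -0.27 to 0.86) on the brighter probe. Within single slides this probe differed by -0.02 to 0.25 with BDB and 0.66 to 1.05 with DINCH. For DOS it differed by 0.47 on slide 1 and 0.71 on slide 3, where the low replicate 4 was the only DMSO array.

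**Figure D2:**
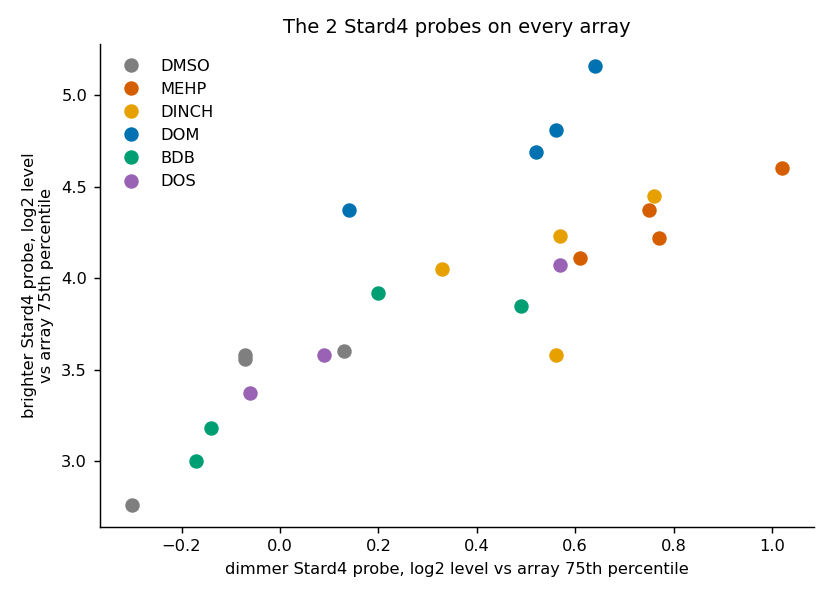
The 2 Stard4 probes on each of the 23 arrays, both as log2 level relative to the array's 75th percentile, with the dimmer probe on the x axis and the brighter on the y axis. Each point is 1 array, coloured by group. The 4 DOM arrays lie highest for their place on the x axis, with the brighter probe 4.18 to 4.52 units above the dimmer, against 3.06 to 3.65 in DMSO.

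Srebf2 and Srebf1 code for the SREBP factors, whose activity is set largely by cleavage of the protein. Srebf2 read 1.90, 1.59, 1.93 and 2.15 in DMSO and 2.18, 2.25, 2.19 and 2.21 with MEHP on its brighter probe. The MEHP arrays lay closely together just above the highest DMSO array, but the difference of 0.32 (SE 0.12, adjusted p = 0.215) did not pass. DOM gave 0.32 (SE 0.15, adjusted p = 0.144), with 3 of 4 arrays above DMSO. DINCH, BDB and DOS gave -0.02, -0.02 and -0.09. The dimmer Srebf2 probe gave 0.46 for DOM, 0.42 for MEHP and 0.29 for DINCH, and none passed. No Srebf1 difference passed, with values of 0.19 for DOM (adjusted p = 0.175), -0.16 for MEHP, -0.31 for DINCH, -0.32 for BDB and 0.03 for DOS.

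Scap, the sensor and escort, read 4.32, 3.83, 4.17 and 3.99 in DMSO and 3.53, 3.49, 3.91 and 3.52 with DINCH. Of the DINCH arrays, 3 lay below every DMSO array and replicate 3 lay within the DMSO range. The difference was -0.46 (SE 0.14, adjusted p = 0.0692) and did not pass. With the replicate block the adjusted p was 0.0414, still under 1.5-fold in size. The differences were -0.24 for MEHP, 0.07 for DOM, -0.14 for BDB and -0.14 for DOS.

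Npc1, the lysosomal exporter, read -0.91, -1.07, -0.85 and -0.37 in DMSO and -0.41, -0.22, -0.35 and -0.05 with DOM. DMSO replicate 4 overlapped the DOM range, and 3 of the 4 DOM arrays lay above it. The difference of 0.54 (SE 0.16, adjusted p = 0.0285) passed the adjusted p but, at 1.46-fold, not the size limit. Without DMSO replicate 4 it was 0.69 (adjusted p = 0.00591) and without DOM replicate 1 it was 0.59 (adjusted p = 0.0343), and the gene was then called. With BDB, Npc1 read -1.21, -1.18, -1.01 and -1.09, with 3 arrays below every DMSO array and a difference of -0.32 (adjusted p = 0.355). DINCH gave 0.32 (adjusted p = 0.355), MEHP -0.03 and DOS -0.14.

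Abca1, the efflux pump, was not well above background on any of the 23 arrays. Its group means were between -6.51 (DOM) and -6.11 (DINCH), so its readings carry no level and no fold is given.

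**Figure D3:**
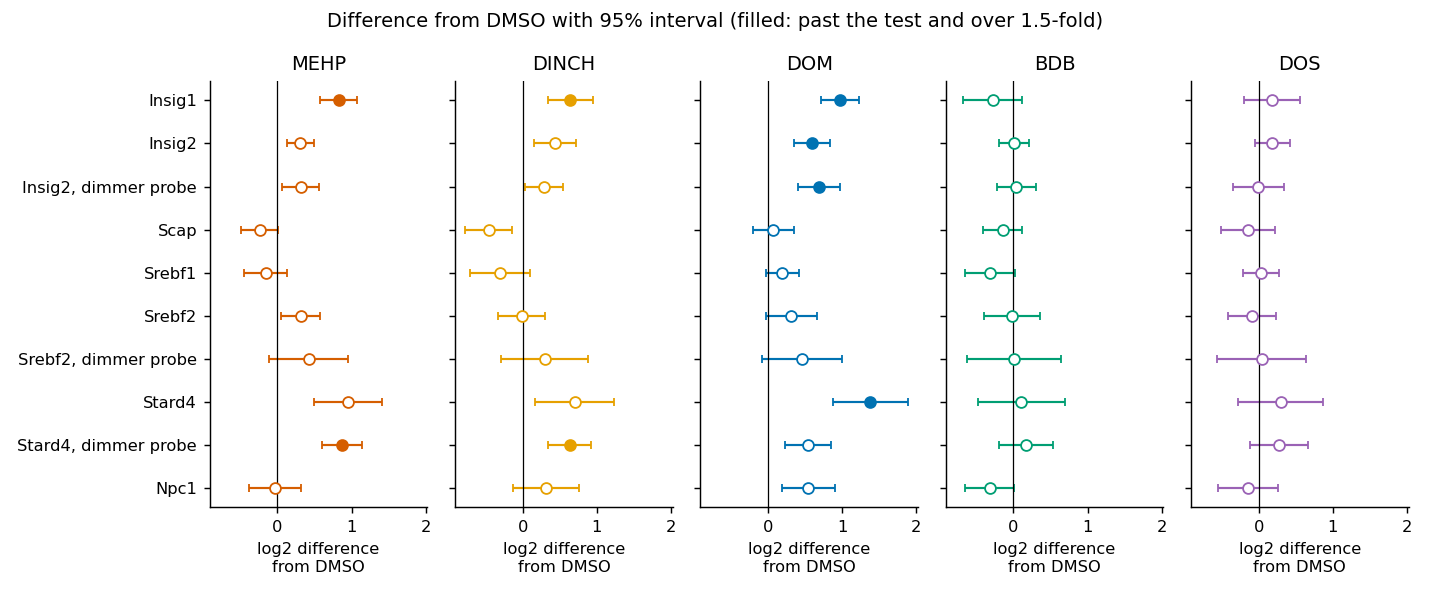
Log2 difference from DMSO (x axis) for the 10 tested probes of 7 genes (y axis), 1 panel per compound, with 95% intervals from limma. Filled points are past the adjusted p and over 1.5-fold. Filled points are present for MEHP (2), DINCH (2) and DOM (4) and absent for BDB and DOS.

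Over the 23 arrays, the Pearson correlation of Insig1 was 0.88 with Stard4, 0.81 with Insig2, 0.58 with Srebf2 and 0.57 with Npc1. It was 0.25 with Srebf1 and -0.20 with Scap. Of 12171 genes compared, those most like Insig1 over the arrays were Hmgcs1 (0.96), Mvd (0.96), Sc5d (0.93), Fdft1 (0.93) and Msmo1 (0.92), all enzymes of cholesterol synthesis. Arrays of 1 group share a treatment and all share the scaling, so these values describe the arrays and are not independent. The genes most like the Abca1 reading were Tor1a (0.82), Endog (0.77), Timmdc1 (0.74), Gfra4 (0.72) and Zfp282 (0.72), for a probe at background.

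The compounds were then compared with each other at the same dose and time, in 1 fit of the 6 groups with p-values adjusted over all probes and all 10 pairs. The pairs of DOM or DOS with MEHP, DINCH or BDB cross the slide rows, and the row cannot be told apart from the compounds there. Every member called in a pair was higher with MEHP, DINCH or DOM than with BDB or DOS. DOM exceeded BDB for 4 of 7 genes (20.7% of all probes called in that pair) and DOS for 4 of 7 (11.9%), in both pairs Insig1, Insig2, Stard4 and Npc1. MEHP exceeded BDB (2.23%) and DOS (1.29%) for Insig1 and Stard4. Against DOS, Stard4 passed on its dimmer probe only (0.59, adjusted p = 0.0199), with the brighter probe at 0.65 (adjusted p = 0.0938), and the call was lost with only those 2 groups in the fit (adjusted p = 0.0556). DINCH exceeded BDB for Insig1 and Npc1 (7.53%). No member was called for DINCH against DOS (5.74%), MEHP against DINCH (2.73%), MEHP against DOM (14.4%), DINCH against DOM (18.1%) or BDB against DOS (1.94%).

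DOM and DOS are both dioctyl esters of a straight diacid and differ by the double bond of the maleate core, which the succinate lacks. They also lay on the same slide rows. Insig1 was 0.79 log2 units higher with DOM than with DOS (SE 0.17, interval 0.44 to 1.14, adjusted p = 0.00192), and the groups did not overlap. Stard4 was 1.09 higher on its brighter probe (SE 0.26, interval 0.54 to 1.63, adjusted p = 0.00573). Npc1 was 0.69 higher (SE 0.17, interval 0.34 to 1.03, adjusted p = 0.00587). Insig2 was called on its dimmer probe, 0.69 higher, while the brighter probe was 0.41 higher (interval 0.17 to 0.65, adjusted p = 0.0154) and under 1.5-fold. Srebf2 was 0.41 higher (interval 0.09 to 0.72, adjusted p = 0.0717), Scap 0.21 (interval -0.05 to 0.48) and Srebf1 0.16 (interval -0.23 to 0.55), none of which passed.

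Among the 3 compounds on the other rows, Insig1 was 1.1 log2 units higher with MEHP than with BDB (SE 0.16, interval 0.78 to 1.43, adjusted p = 3.41e-05). It was 0.92 higher with DINCH than with BDB (interval 0.59 to 1.24, adjusted p = 0.000238). Between MEHP and DINCH it differed by 0.18 (interval -0.14 to 0.51, adjusted p = 0.475), an interval that spans 0. Npc1 was 0.64 higher with DINCH than with BDB (interval 0.32 to 0.96, adjusted p = 0.00547). Across rows, Insig1 was 0.33 lower with DINCH than with DOM (difference -0.33, interval -0.66 to -0.01, adjusted p = 0.156), and Npc1 was 0.57 lower with MEHP than with DOM (difference -0.57, interval -0.90 to -0.25, adjusted p = 0.0118, 1.49-fold), just under the size limit. Scap differed by -0.53 between DINCH and DOM (interval -0.78 to -0.29, adjusted p = 0.00254, 1.45-fold) and was not called. With quantile normalization it was called (-0.61, adjusted p = 0.0015), as was the brighter Stard4 probe for the same pair (-0.76, adjusted p = 0.0298).

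**Figure D4:**
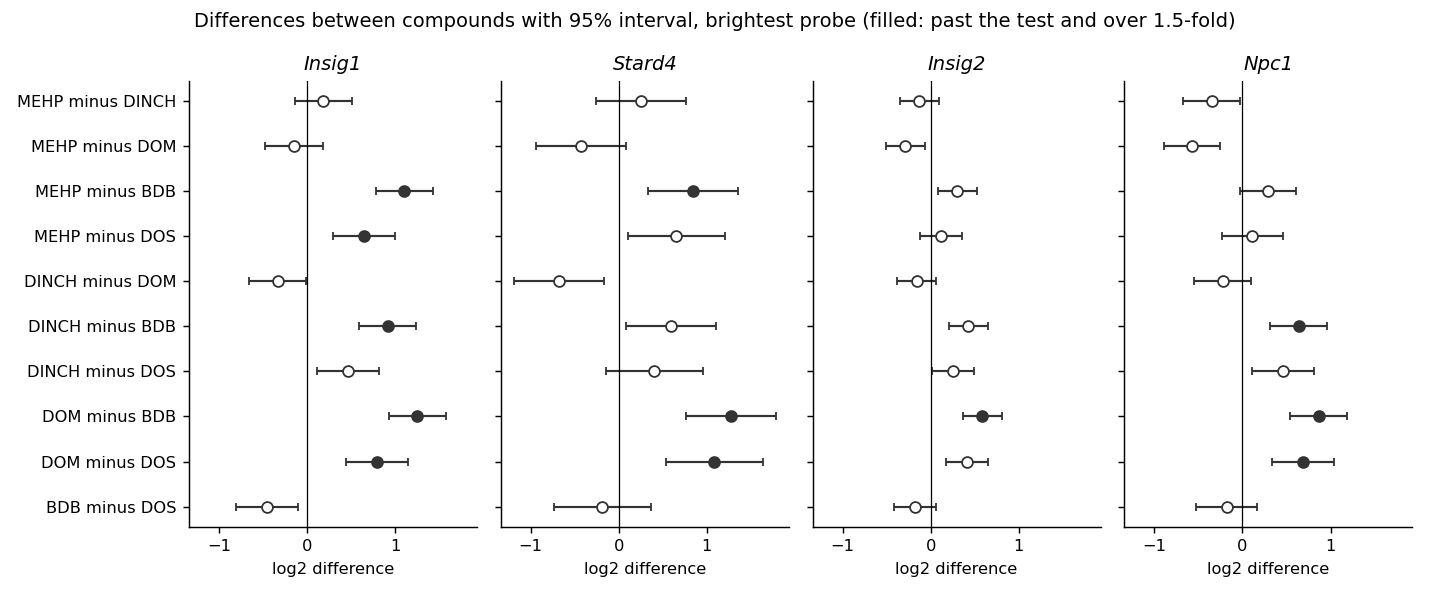
Log2 difference between compounds (x axis, first minus second) for the 10 pairs (y axis) and for the brightest probe of Insig1, Stard4, Insig2 and Npc1, with 95% intervals. Filled points are past the adjusted p and over 1.5-fold. Filled points occur in the pairs of MEHP, DINCH or DOM with BDB, and of MEHP or DOM with DOS, and all lie above 0.

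The wider pathway was read through 6 lists of related genes. The share of all probes called in each comparison, given above, is the background for every list. Of 22 cholesterol synthesis enzymes, which are the main SREBP-2 targets, 16 were called higher with MEHP, 6 with DINCH and 19 with DOM. None was called lower. Their median log2 differences were 0.68, 0.50 and 0.97, against -0.0017 for BDB and 0.34 for DOS, where none was called although 21 of 22 lay above 0 with DOS. Of all tested probes, 46.5% lay above 0 with DOS. The largest rises were of Pmvk (1.27) and Mvd (1.27) with MEHP, Mvd (1.04) and Pmvk (1.04) with DINCH, and Tm7sf2 (2.04) and Hsd17b7 (1.92) with DOM. Pmvk and Mvd act early in the pathway, on mevalonate phosphates, and Tm7sf2 and Hsd17b7 act on sterols after the ring system is closed. Of 13 tested SREBP-1 fatty acid targets, 4 rose with MEHP, led by Elovl6 (0.94) and Scd1 (0.88). Of 14 tested with DOM, 6 rose, among them Elovl6 (1.63). Another was Pnpla3, at least 2.04-fold higher than DMSO, where it was not well above background. It passed the filter only through its DOM arrays, so its place among the 6 follows in part from the filter. None of 13 was called with DINCH.

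Of 9 genes that process or degrade the loop's own proteins, Rnf145, a sterol-sensing ubiquitin ligase, fell with DINCH (-0.94, adjusted p = 0.0169). Erlin1, which acts in breakdown of HMG-CoA reductase, fell with DOM (-1.08, adjusted p = 0.000716), and none of the 9 was called with MEHP. These single falls of 9 stand beside 3.14% of all probes lower with DINCH and 8.93% with DOM, so the list as a whole is not set apart by them. Of 9 genes of lipoprotein uptake and lysosomal export, 4 rose with DOM, among them Sort1 (0.93) and Lrp1 (0.68), where 7.67% of all probes were higher. Of these 4, 1 was called only on the dimmer of its 2 probes, with the brighter at 0.38 (adjusted p = 0.0707). Scarb2 (-0.70) fell, 1 of 9 where 8.93% of all probes were lower. With DINCH, Sort1 was called higher on 1 of its 2 probes only, and Vldlr, a lipoprotein receptor, lower on 1 of its 2. None of these 9 was called with MEHP.

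LXR genes, the companions of Abca1, were tested for 6 of 12. Lpcat3, a phospholipid-remodelling enzyme, rose with MEHP (0.72, adjusted p = 0.00748) and with DOM (0.89, adjusted p = 0.000318). Rxra, the partner receptor, rose with DINCH (0.92, adjusted p = 0.00537), and Apoe, the apolipoprotein that accepts exported cholesterol, fell with DOM (-0.69, adjusted p = 0.000712). Of 16 tested genes of intracellular transport and esterification, Soat2, which esterifies cholesterol for storage, fell with MEHP (-1.07, SE 0.21, adjusted p = 0.0388), with DINCH (-1.67, SE 0.20, adjusted p = 0.00363) and with DOM (-2.66, SE 0.27, adjusted p = 0.000355). With DOS its difference was -1.11 (SE 0.25, adjusted p = 0.387), with the groups not overlapping, and with BDB it was -0.06. Stard5, another START-domain sterol carrier like Stard4, fell with DINCH (-0.97) and DOM (-1.06), and Gramd1a, which moves cholesterol from the plasma membrane, rose with DINCH (0.80). With DOM, 2 of these 16 fell and none rose, where 8.93% of all probes were lower and 7.67% higher. With DINCH 2 fell and 1 rose (3.14% and 3% of all probes), and with MEHP 1 fell (0.434%). Of the 6 LXR genes, 1 rose and 1 fell with DOM, and 1 rose with MEHP and with DINCH. No gene of these lists was called with BDB or DOS.

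**Figure D5:**
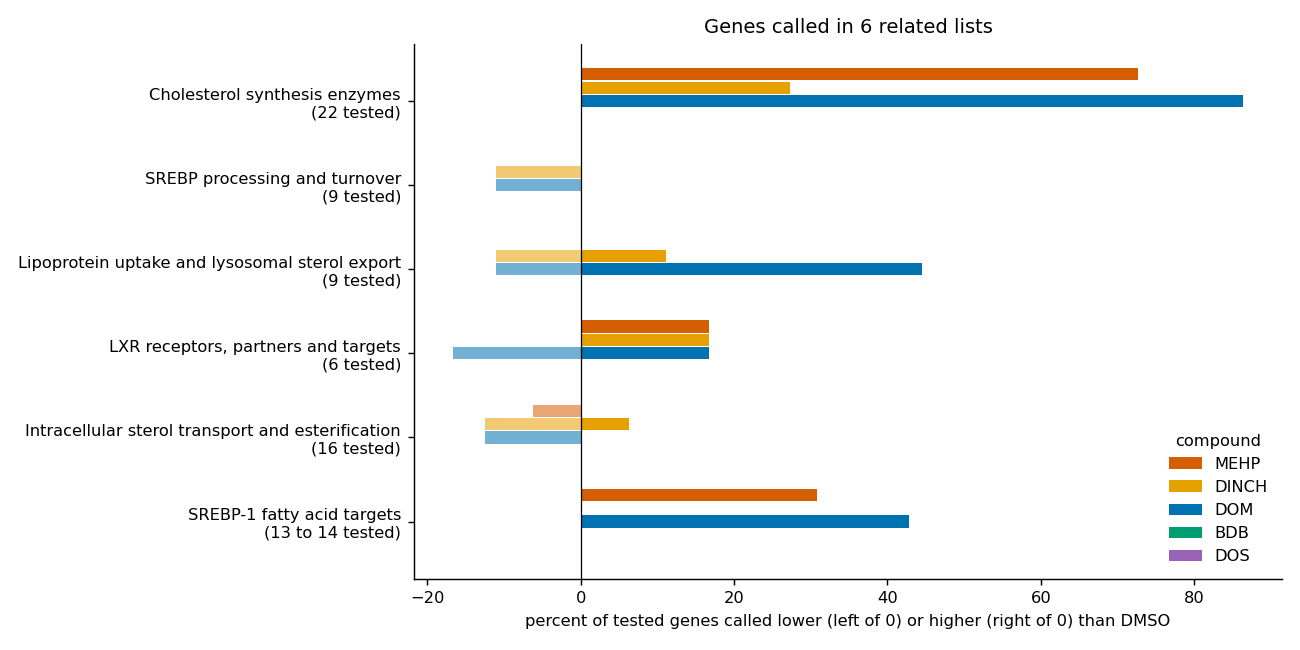
Percent of tested genes called higher (right of 0) or lower (left of 0) than DMSO on the x axis, for 6 lists of related genes on the y axis, with bars coloured by compound. The cholesterol synthesis enzymes have the 2 longest bars, 19 of 22 for DOM and 16 of 22 for MEHP, and a shorter one of 6 of 22 for DINCH. BDB and DOS have no bars because no gene was called.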

How the data were processed

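Cy3-labelled cRNA from the 23 cultures was hybridized to 1-colour Agilent mouse arrays. The authors extracted the spot intensities with Agilent software, which subtracted background and flagged outlier and dim spots. The deposited intensities were not scaled between arrays. A further deposited file holds log2 values that the authors scaled by the 75th percentile and centred per probe, and it served as an alternative. Here, log2 of the processed intensity was reduced by log2 of the 75th percentile of the array's non-control spots, outlier spots included. Outlier spots (102 to 187 an array) were then dropped, and the remaining replicate spots of 1 probe were averaged. Probes were named through their RefSeq accession, which named 26582 of 55681.

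Testing was limited to probes that, in 1 or both of the compared groups, were well above background and not below the 20th percentile on all arrays. Each compound was compared with DMSO in limma 3.58.1 (R 4.3.3, with data.table version 1.17.8), on the arrays of both groups only, and called at an adjusted p below 0.05 and more than 1.5-fold. Pairs of compounds used 1 fit over 6 groups and 25019 probes. For genes with several probes, the value is from the probe that was brightest over the 23 arrays. Text and figures used Python 3.11.15, pandas 2.3.3, numpy 2.4.6, scipy 1.17.1 and matplotlib 3.10.9. The tests were tested on simulated data.

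The text names all 8 members and, of 6 related lists, the counts and at most the 2 called genes with the largest rise and the 2 with the largest fall per compound. It also names the 5 genes most like Insig1 and Abca1 over the arrays. Members and lists were chosen with earlier results of these data known. The labels give the groups the same replicate numbers. Pairing was checked by correlating the deviations from the group mean of arrays with the same number. The correlations were 0.17 to 0.50 for DINCH, 0.25 to 0.43 for BDB and 0.20 to 0.45 for DOS. They were -0.14 to 0.45 for MEHP and 0.04 to 0.43 for DOM. MEHP 2, DOM 2, DINCH 3 and DOS 3 lay on another slide than the DMSO array of the same number. Their correlations were the lowest, at -0.14, 0.04, 0.17 and 0.20. All other same-numbered arrays shared a slide with DMSO, so number and slide cannot be told apart. No label says that the numbers pair the arrays, and these values cannot decide it. The values reported are from fits without the replicate block, which was run as an alternative. Alternatives were quantile normalization, normexp background correction with an offset of 50, detection required on 1 array only, no filter on dim probes, outlier spots kept, a block for the replicate number or for the slide, 1 fit of all groups, a variance trend, the log2 values of the authors, and each array left out in turn. The number of arrays limits the precision. Some related genes are not reported here.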

Additional observations from a re-analysis of the deposited data

Results flagged for a closer look

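An array stood apart from the other 3 of its group in 4 of the 55 sets of 4 arrays checked, a set being 1 probe in 1 group, by the gap between that array and its nearest neighbour as a share of the group's range. Chance gives about 1 such set in 20. The lowest was DMSO replicate 4 for the brighter Stard4 probe (0.950) and for the dimmer Insig2 probe (0.833). BDB replicate 2 was lowest for the dimmer Srebf2 probe (0.870), and DINCH replicate 3 was highest for Scap (0.909).

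Differences between compounds that passed the test were also set aside, as log2 differences. MEHP minus BDB was 1.1 for Insig1, 0.84 for the brighter and 0.70 for the dimmer Stard4 probe. MEHP minus DOS was 0.65 for Insig1 and 0.59 for the dimmer Stard4 probe. DINCH minus BDB was 0.92 for Insig1 and 0.64 for Npc1. DOM minus BDB was 1.25 for Insig1, 1.27 for the brighter Stard4 probe, 0.86 for Npc1, and 0.59 and 0.64 for the brighter and dimmer Insig2 probes. DOM minus DOS was 0.79 for Insig1, 1.09 for the brighter Stard4 probe, 0.69 for Npc1 and 0.69 for the dimmer Insig2 probe.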

How the results depend on the processing

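The number of members called was 2 for MEHP, 2 for DINCH and 3 for DOM. Without a filter on dim probes it was 0 for MEHP and for DINCH. Over all 55681 probes, 3 for MEHP and 137 for DINCH were then called, against 297 and 1473 with the filter. The log2 differences of Insig1 stayed at 0.82 and 0.64. For DINCH the number of members was 0 with normexp (775 of all probes called) and 1 (Stard4) with detection on 1 array (883 of all probes called). Leaving out each array in turn gave a range of 0 to 2 with DINCH, of 3 to 4 with DOM, of 2 to 2 with MEHP and of 0 to 0 with BDB and with DOS. For DINCH it was 0 without DMSO replicate 3, DMSO replicate 4 or DINCH replicate 1, and 1 (Stard4) without DMSO replicate 1 or DINCH replicate 4. No member was called for BDB or DOS in any setting, although over all probes the number called for BDB reached 172 with all groups in 1 fit and for DOS 18 without DOS replicate 3. With the replicate block the counts of members were 2, 2, 3, 0 and 0. The block turned the brighter Stard4 probe into a call for MEHP and DINCH and changed no other call. Differences between compounds gave 14 called pairs of gene and comparison, 16 with quantile normalization (with Scap and Stard4 for DINCH against DOM added) and 13 with only the compared groups in the fit (without Stard4 for MEHP against DOS). Of 890 values against DMSO in other settings, 18 lost and 15 gained a call, and of 200 between compounds 1 lost and 2 gained one. No value with an interval clear of 0 changed sign, and 38 and 2 values changed sign with intervals that spanned 0 in both settings. The causes were not tested.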

Other observations

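The difference between the 2 probes of a gene on the same array was compared with DMSO for Stard4, Insig2 and Srebf2, a test added after the data were seen. For Stard4 with DOM the brighter probe exceeded the dimmer by 4.30 ± 0.15 log2 units (SD, n = 4), against 3.45 ± 0.28 (SD, n = 4) in DMSO, and the groups did not overlap. The exact two-sided permutation test gave p = 0.0286, the smallest that 4 against 4 arrays allow, and 0.429 after adjustment over the 15 tests, which no result of this design could have passed alone. In the other 14 tests the groups overlapped and the exact p was 0.114 or more.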
